A study of Mus musculus with 2 samples.

Results

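Claudins are the membrane proteins that close, or open, the space between neighbouring cells of an epithelium or endothelium. Their strands form the tight junction: some members seal it, others line it with pores that let small ions and water pass, and the balance between the kinds sets how leaky a stretch of epithelium is. In the gut, CLDN3, CLDN4 and CLDN7 are abundant along the lateral membrane, CLDN2 and CLDN15 form pores for cations, and CLDN5 is the claudin of vessel walls. The claudins described here are the 9 genes Cldn1, Cldn2, Cldn3, Cldn4, Cldn5, Cldn7, Cldn12, Cldn15 and Cldn23, chosen by symbol as the family members usually named for gut barrier and vessels. They are 9 of the 32 numbered claudin genes, and of 32285 genes in all, that both count matrices list.

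The cells came from intestinal tumours of mice given AOM-DSS, a carcinogen (azoxymethane) followed by a colitis-inducing agent (dextran sulphate sodium). The library called WT came from Mtch2fl/fl mice, whose Mtch2 gene, coding for a mitochondrial outer membrane protein, is flanked by recombination sites but intact. The library called cKO came from Mtch2fl/fl VilCre mice, in which Cre is driven by the Villin promoter and acts in intestinal epithelium, so vessels, fibroblasts and immune cells keep the gene. Tumours of each genotype were pooled and dissociated with trypsin, and there is 1 droplet single-cell library per genotype. The sources used here do not give the mice's age or number. No difference between the genotypes could therefore be tested: it cannot be told apart from a difference between libraries or pools, and every interval below covers counting error only.

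Levels are UMIs (unique molecular identifiers, each standing for 1 captured transcript) summed over the cells of a group, per 1000000 UMIs of those cells (CPM). Filtering left 7245 WT cells (median 3723 UMIs) and 4388 cKO cells (median 6928 UMIs), and 14 of the kept barcodes occurred in both libraries. Cells were clustered without any claudin gene. The 8 clusters called epithelial-like held 2762 WT cells (median 26956 UMIs) and 1764 cKO cells (median 34140 UMIs), while 44.5% and 19.3% of kept cells lay in clusters left unnamed. Mtch2, the targeted gene, was at 94.2 (WT) and 23.5 CPM (cKO) epithelial-like cells, and at 48.3 and 41.2 CPM in T-like cells. Of the 8 clusters, cluster 1 was stem-like (Lgr5 among its leading genes), cluster 6 mitotic-like (Top2a, Cenpf), clusters 5 and 18 absorptive-like (Saa1, Clca4b and Krt20 led the first, Muc3 and Slc26a3 the second) and cluster 12 goblet and Paneth-type-like (Muc2, Lyz1, Defa24). Cluster 5 scored slightly higher for the list of surface genes of inflamed epithelium (2.45) than for the absorptive list (2.30), each score being the mean log2(CPM + 1) of a list less its mean over the 8 clusters. Ly6g, a gene better known from neutrophils, was also among its leading genes. Cluster 2 (Gabrb1, Cadps, Npy), cluster 3 (Cftr, Slc12a2, Fut9) and cluster 8 (Gm26917, Lars2) carried no subtype name. On the mitotic list cluster 3 scored 1.79 and cluster 8 scored 1.37, beside 1.99 for cluster 6. Cluster 1 had the highest stem-like score, 1.16, followed by cluster 8 (0.85), cluster 2 (0.66) and cluster 6 (0.63). Ascl2, a gene also known from gut stem cells, did not peak in cluster 1 (CPM: WT 22.0, cKO 18.3). Cluster 3 (WT 41.9, cKO 37.5) and cluster 6 (WT 33.3, cKO 36.5) had more of it. Clusters 2, 5, 12 and 18 had less in both libraries, and cluster 8 in cKO alone. Cluster 8 was the shallowest of the 8, with medians of 3380 (WT) and 3298 UMIs (cKO), and had the highest median mitochondrial share, 10.7%.

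Promoter windows of 4 claudins with contrasting distributions over cell groups are shown first: Cldn2 and Cldn15, which peaked in the same cluster, Cldn4, which was highest in another cluster, and Cldn5. Each window runs from 250 bases before to 50 bases after the start in RefSeq (GRCm38.p6), 5′ to 3′ on the gene's strand. Capitals mark matches, on either strand, to the letters of 8 motifs searched. In these windows the matches were to TATAAA, the TATA box that places the start of transcription. They were also to TTTATG, a form bound by the intestinal homeobox factors CDX1 and CDX2. The remaining matches were to GGGCGG, the GC box bound by factors of the SP and KLF family, and to TGANTCA, the site of AP-1. No matches overlapped in these windows.
Cldn2, chrX:139800558-139800857, plus strand: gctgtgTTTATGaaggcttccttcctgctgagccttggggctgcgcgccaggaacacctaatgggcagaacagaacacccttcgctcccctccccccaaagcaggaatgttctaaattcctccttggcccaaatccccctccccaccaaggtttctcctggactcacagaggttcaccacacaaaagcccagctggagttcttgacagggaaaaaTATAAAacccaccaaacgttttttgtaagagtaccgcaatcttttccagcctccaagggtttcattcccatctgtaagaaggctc
Cldn15, chr5:136967619-136967918, plus strand: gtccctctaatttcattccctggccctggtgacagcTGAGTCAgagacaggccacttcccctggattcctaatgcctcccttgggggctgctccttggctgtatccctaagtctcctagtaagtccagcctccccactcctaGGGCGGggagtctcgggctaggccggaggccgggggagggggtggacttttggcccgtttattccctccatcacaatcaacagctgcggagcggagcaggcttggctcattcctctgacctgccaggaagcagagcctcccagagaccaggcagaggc
Cldn4, chr5:134946885-134947184, minus strand: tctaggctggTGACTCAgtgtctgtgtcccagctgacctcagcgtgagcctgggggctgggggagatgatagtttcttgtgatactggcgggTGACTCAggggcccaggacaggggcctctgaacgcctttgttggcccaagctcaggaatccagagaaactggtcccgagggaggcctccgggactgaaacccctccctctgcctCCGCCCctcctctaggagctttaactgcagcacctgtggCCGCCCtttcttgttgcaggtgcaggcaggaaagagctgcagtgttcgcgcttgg
Cldn5, chr16:18776597-18776896, plus strand: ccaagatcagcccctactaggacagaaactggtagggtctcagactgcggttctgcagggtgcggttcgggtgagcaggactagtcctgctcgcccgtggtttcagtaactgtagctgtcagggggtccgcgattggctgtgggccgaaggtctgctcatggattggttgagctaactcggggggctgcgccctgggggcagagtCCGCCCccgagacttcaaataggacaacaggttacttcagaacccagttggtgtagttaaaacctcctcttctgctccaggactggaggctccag

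Among the 4 windows, only that of Cldn2 held a TATA box and the CDX letters, and it held no GC box. Of all 32851 RefSeq windows of this length, 13.6% hold the TATA box, 11.9% the CDX letters, 35.7% the GC box and 7.81% the AP-1 letters. The Cldn4 window holds the AP-1 letters at 2 places and the Cldn15 window at 1. A search for CTTTGAT, the site of TCF and LEF factors (in 3.73% of all windows), found none in the windows of the 8 members that have an entry. The same was true of AGATAA, the site of GATA factors (11.2%). It was also true of ATTGTT, the site of SOX factors (10.7%). The letters CCGGAA, bound by ETS factors (14.9%), were found in the windows of Cldn7 and Cldn12. A match is a string of letters, not a measured binding site.

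Cldn7, Cldn3 and Cldn4 made up most of the claudin transcripts of the epithelial-like cells. UMI counts come once per transcript and are not scaled to its length, so levels of different claudins can be set side by side within that limit. Cldn7 (chromosome 11, 69964779-69967885, plus strand, GRCm38), which codes for a lateral membrane claudin that binds EPCAM, was at 991 (WT) and 939 CPM (cKO), or 49.0% and 50.6% of all UMIs of the 9 genes. Cldn3 (chromosome 5, 134986214-134987472, plus strand), coding for a sealing claudin, was at 499.6 and 431 CPM. Cldn4 (chromosome 5, 134945119-134946934, minus strand), coding for a claudin that lowers cation passage, was at 393 and 333 CPM. Both are single-exon genes in the annotation and lie 39279 bases apart, and Cldn3 overlaps Wbscr25, annotated antisense to it, which had 644 and 415 UMIs in these cells against 45489 and 30059 for Cldn3. The sources used here do not say whether the counting used strand.

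The other 6 claudins were at least 5 times scarcer than Cldn4 in each library. Cldn23 (chromosome 8, 35824712-35826559, minus strand), coding for a claudin of differentiated surface cells, was at 66.2 (WT) and 64.6 CPM (cKO). Cldn2 (chromosome X, 139800828-139811386, plus strand), coding for the cation and water pore of leaky crypts, was at 45.5 and 58.5 CPM. Cldn12 (chromosome 5, 5489537-5514958, minus strand), coding for a claudin without the usual scaffold-binding tail, was at 15.2 and 16.8 CPM. Cldn15 (chromosome 5, 136966616-136975858, plus strand), coding for the sodium pore of the small intestine, was at 9.85 and 8.12 CPM. Cldn5 (chromosome 16, 18776847-18778262, plus strand) was at 2.92 and 4.56 CPM and Cldn1 (chromosome 16, 26356642-26371841, minus strand), which codes for the sealing claudin of stratified epithelia, at 0.21 and 0.56 CPM from 19 and 39 UMIs. The order of the 9 genes was the same in both libraries, and no neighbours in it had overlapping counting intervals in either.

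Levels in T-like cells are used here as a floor under these values. In these cells, taken to hold no claudin mRNA of their own and with medians of 7442 and 7694 UMIs, Cldn7 was at 120 and 74.5 CPM, Cldn3 at 52.4 and 28.3 CPM, Cldn4 at 63.6 and 35.6 CPM and Cldn2 at 5.37 and 5.89 CPM. Cldn3 was 43.6% and 37.9% of Cldn7 there, against 50.4% and 45.9% in epithelial-like cells. A Cldn7 UMI was present in 94.4% and 93.0% of epithelial-like cells and in 62.2% and 43.5% of T-like cells. With each cell thinned to 3000 UMIs these shares were 84.5% and 85.7% against 33.2% and 23.0%. Whether these UMIs came from free RNA, attached cells or missed doublets was not tested. The level also differed between named classes outside the epithelium. In WT, Cldn7 ran from 76.3 CPM in macrophage and monocyte-like to 421 CPM in fibroblast-like cells. In cKO it ran from 55.3 CPM in plasma-like to 213 CPM in mast and basophil-like cells. Levels under about the T-like floor are given below as values, not as expression.

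**Figure D1:**
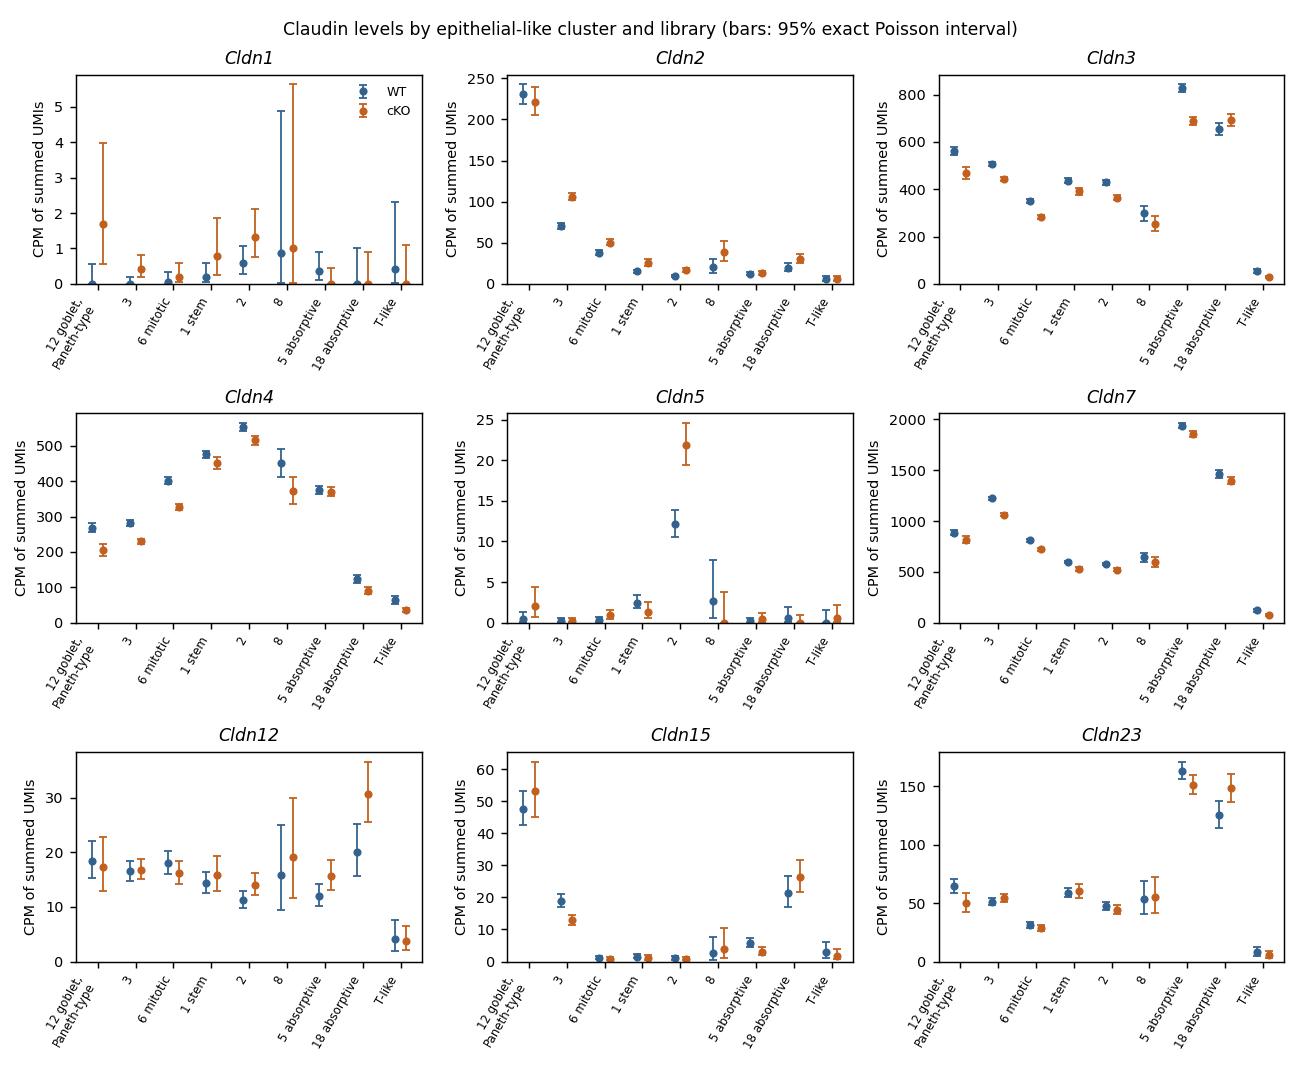
Level of each claudin (CPM of summed UMIs, linear axes from 0) in the 8 epithelial-like clusters and in T-like cells, WT blue and cKO orange, with 95% exact Poisson intervals that cover counting error only. Cldn2 and Cldn15 peaked in cluster 12, Cldn3, Cldn7 and Cldn23 in clusters 5 or 18, and Cldn4 and Cldn5 in cluster 2.

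The pore-forming claudins were highest in the goblet and Paneth-type-like cells. Cldn2 was at 231 CPM (219 to 243) in WT cluster 12 and 222 CPM (205 to 240) in cKO, followed in both libraries by cluster 3, the cluster led by the chloride channel gene Cftr, at 70.5 and 106 CPM, and by the mitotic-like cluster 6 at 37.7 and 50.3 CPM. Its lowest levels were 9.15 CPM, in WT cluster 2, and 12.7 CPM, in cKO cluster 5, so that the range was 25.2-fold and 17.4-fold. Clusters 8, 18 and 1 came next in both libraries, and there each interval overlapped with that of its neighbour. In mitotic cells picked cell by cell, by their marker UMIs, Cldn2 was at 51.6 (WT) and 67.3 CPM (cKO). Cldn15 had its peak in the same cluster 12, at 47.7 CPM (42.5 to 53.3) for WT and 53.2 CPM (45.1 to 62.2) for cKO. The absorptive-like cluster 18 followed with 21.4 and 26.3 CPM and cluster 3 with 19.0 and 12.8 CPM. Everywhere else Cldn15 lay between 0.78 and 5.80 CPM, near the 2.89 and 1.77 CPM of T-like cells.

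Within cluster 12 the pore-forming claudins were found in part of the cells. A Cldn2 UMI was present in 132 of 208 WT cells (63.5%) and 50 of 80 cKO cells (62.5%), with a median depth of 9641 and 15003 UMIs, against 4.51% and 4.77% of T-like cells. At 3000 UMIs per cell the shares were 38.0% and 37.1% against 0.71% and 2.05%, with 37 and 18 shallower cells of cluster 12 left out. For Cldn15 they were 39.4% and 38.8%, or 9.94% and 11.3% at equal depth. Cldn2 came to 26.1% and 27.2% of Cldn7 in these cells, against 0.64% and 0.69% in the absorptive-like cluster 5. A further claudin, Cldn14, which codes for a cation-restricting family member and is not among the 9, had 72 UMIs in WT cluster 12 and 101 UMIs (34.4 CPM) in the smaller cKO cluster.

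Cldn7, Cldn23 and Cldn3 were highest in clusters 5 and 18. Cldn7 was highest in cluster 5, at 1939 (WT) and 1857 CPM (cKO), then in cluster 18 at 1464 and 1396 CPM, and lowest in cluster 2 at 577 and 521 CPM. Cldn23 followed the same top order, with 163 and 151 CPM in cluster 5 and 125 and 148 CPM in cluster 18, and was lowest in the mitotic-like cluster 6 at 31.3 and 28.5 CPM. In mitotic cells picked cell by cell, by their marker UMIs, Cldn23 was at 40.1 and 35.5 CPM. Of those cells 30.8% and 37.6% lay in cluster 6. Cldn3 reached 827 and 688 CPM in cluster 5, beside 654 and 692 CPM for cluster 18. Its intervals in these clusters overlapped in cKO but not in WT, and its lowest level was in the shallow cluster 8, at 297 and 252 CPM. In cKO the intervals of Cldn23 in clusters 5 and 18 overlapped as well.

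Cldn4 had its highest levels in other clusters. It was highest in cluster 2, at 554 CPM (542 to 565) for WT and 515 CPM (503 to 528) for cKO, next in the stem-like cluster 1 at 475 and 451 CPM, and lowest in the absorptive-like cluster 18 at 124 and 90.1 CPM, a range of 4.46-fold and 5.71-fold. With stem-like cells picked cell by cell, by their marker UMIs, in place of cluster 1, Cldn4 was at 313 and 330.0 CPM in them, beside 313 and 258 CPM in absorptive cells picked the same way. Of the stem-like cells so picked, 47.9% (WT) and 35.2% (cKO) lay in cluster 1. In cluster 2 Cldn4 came to 95.9% and 98.9% of Cldn7, and in cluster 18 to 8.47% and 6.46%. The absorptive-like clusters differed in it, since cluster 5 stood at 374 CPM in WT, 3 times the level of cluster 18. Cldn8, another claudin not among the 9, was found mostly in cluster 18, at 124 and 136 CPM, and was at most 17.0 CPM in the other epithelial-like clusters.

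Cldn12 was the least variable. Its levels lay between 11.3 and 20.0 CPM in WT and between 14.1 and 30.7 CPM in cKO, and every pair of neighbours in its order had overlapping intervals. Cluster 18 was its highest and cluster 2 its lowest point in both libraries. Of the 23 numbered claudins beside the 9, 4 reached 10 CPM in at least 1 epithelial-like or endothelial-like group (Cldn8, Cldn14, Cldn6 with 11.6 and 5.44 CPM in cluster 2, and Cldn34c1 with 3 UMIs in cKO lymphatic endothelium), and 6 had no UMI in any deposited barcode.

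The profiles were compared over 13 points, each a cluster of at least 100 cells in a library. Clusters 1, 2, 3, 5, 6 and 8 gave a point in each library, cluster 12 gave a point for WT alone, and cluster 18 gave none. Cldn3 correlated with Cldn23 (Pearson r = 0.80, log2 scale) and Cldn7 (0.79), and Cldn2 with Cldn15 (0.74) and Cldn12 (0.73). The correlation was negative for Cldn2 with Cldn4 (r = -0.84) and for Cldn4 with Cldn15 (-0.80). With clusters of 50 or more cells there were 16 points, with cluster 18 and the cKO cluster 12 added. There r was 0.83 for Cldn3 with Cldn23, 0.82 for Cldn3 with Cldn7 and 0.68 for Cldn2 with Cldn15. It was weaker there for Cldn2 with Cldn12 (0.38) and with Cldn4 (-0.38), while Cldn4 with Cldn15 stood at -0.78. The points share clusters, libraries and the fixed total of CPM, so these are descriptions. Among 5571 genes the profiles most like each claudin were those of Rnase4 for Cldn2 (0.90), Scamp2 for Cldn3 (0.98), Pea15a for Cldn4 (0.97), Slc7a8 for Cldn5 (0.91), Lgals3 for Cldn7 (0.99), Plch1 for Cldn12 (0.82), Rab15 for Cldn15 (0.93) and Gpr137b for Cldn23 (0.96). Lgals3 codes for galectin-3 and Rnase4 for a secreted ribonuclease. With clusters of 50 or more cells, 2 of the first 3 genes were the same for Cldn5, Cldn7, Cldn15 and Cldn23, 1 for Cldn2 and Cldn3, and none for Cldn4 and Cldn12.

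Set between the genotypes over all epithelial-like cells, the abundant claudins differed by less than 1.5-fold. Of the 6 claudins at 10 CPM or more in either library, 0 differed by 1.5-fold, where 2.04% of 9396 genes did. Of these 6, 4 were lower in cKO, where 55.9% of all measured genes were, and their median log2 ratio was -0.06 against -0.02 for all measured genes. Cldn4 differed by -0.24 (-0.26 to -0.21) on the log2 scale, Cldn3 by -0.21 (-0.23 to -0.19), Cldn7 by -0.08 (-0.09 to -0.06) and Cldn23 by -0.03 (-0.09 to 0.02). Cldn2 was higher in cKO by 0.36 (0.30 to 0.42) and Cldn12 by 0.15 (0.04 to 0.26). Of the 3 scarcer genes, Cldn15 differed by -0.28 (-0.43 to -0.12), Cldn5 by 0.64 (0.40 to 0.88) and Cldn1 by 1.40 (0.60 to 2.30), the last 2 past 1.5-fold but under the minimum level.

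Cldn2 was higher in cKO in 7 of 8 clusters and Cldn4 and Cldn7 lower in 8 of 8. All clusters come from the same WT and cKO libraries, so they are not separate observations. Over the whole class 55.9% of all measured genes were lower in cKO, and the share within each cluster is not reported here. The Cldn2 ratio was past 1.5-fold, a log2 value of 0.58, in clusters 1, 2, 3, 8 and 18. The log2 values were 0.77 (0.46 to 1.06), 0.84 (0.54 to 1.15), 0.59 (0.49 to 0.69), 0.92 (0.14 to 1.74) and 0.61 (0.18 to 1.05). Each of these intervals also held values under 1.5-fold, and cluster 8 rested on 23 (WT) and 38 (cKO) UMIs. In these clusters 4.27%, 4.52%, 2%, 19.9% and 6.31% of all measured genes passed that fold. In cluster 12, where Cldn2 was most abundant, it differed by -0.06 (-0.19 to 0.08), and in cluster 5 by 0.03 (-0.35 to 0.40). Cluster 12 held 208 of the WT and 80 of the cKO epithelial-like cells, and weighing clusters 1, 2, 3, 5, 6 and 8 equally, those with at least 100 cells in each library, gave a Cldn2 log2 ratio of 0.60 in place of 0.36. With all 8 clusters weighed equally it was 0.27. In cluster 1 the Cldn2 levels were 15.0 and 25.6 CPM, and in cluster 2 they were 9.15 and 16.4 CPM, not far above the 5.37 and 5.89 CPM of T-like cells.

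The differences of Cldn7 and Cldn3 were small in each cluster. Cldn7 ranged from -0.20 in cluster 3 to -0.06 in cluster 5. Cldn3 ranged from -0.32 in the mitotic-like cluster 6 to 0.08 in cluster 18, the only cluster where it was higher in cKO. Cldn4 was lower by 0.02 in cluster 5 and by 0.46 in cluster 18, both on the log2 scale. In cluster 18 Cldn12 was also past 1.5-fold, at 20.0 CPM from 73 UMIs in WT and 30.7 CPM from 125 UMIs in cKO. In clusters 5, 6 and 12 none of the claudins at 10 CPM or more was past 1.5-fold, where 5.84%, 4.25% and 11.3% of all measured genes were.

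**Figure D2:**
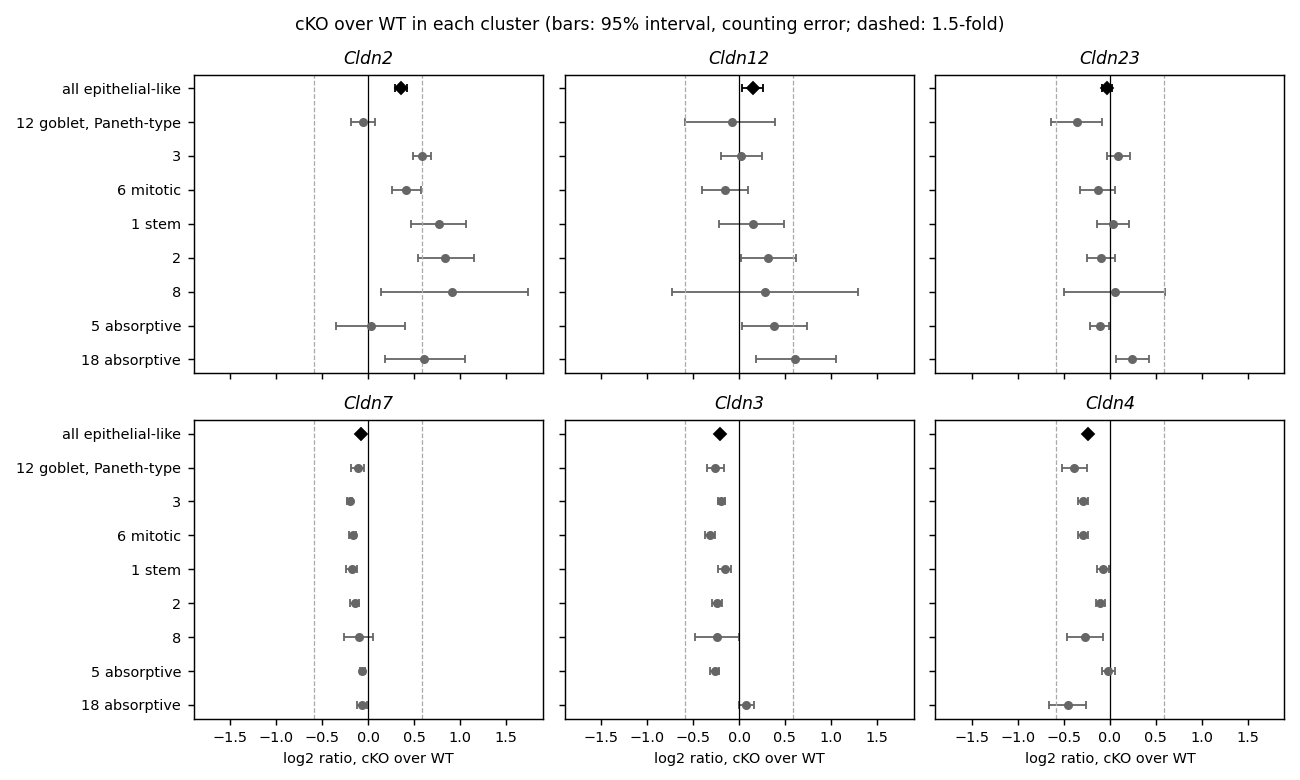
Log2 ratio of cKO over WT for the 6 claudins at 10 CPM or more, in all epithelial-like cells (black diamonds) and in each cluster (grey circles), with 95% intervals that cover counting error only; dashed lines mark 1.5-fold. Cldn2 lies right of 0 in 7 of 8 clusters, and Cldn4 and Cldn7 left of it in 8 of 8. All clusters come from the same WT and cKO libraries.

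The pools held cells of both sexes, in unequal shares. Cells with Xist and no Y-linked UMI were 829 in the WT library (of 2762 epithelial-like cells) and 274 in cKO (of 1764), and cells with a Y-linked and no Xist UMI were 1040 and 1056. Cldn2, which lies on the X chromosome, was at 41.4 (WT) and 82.9 CPM (cKO) among the cells assigned female, and at 42.7 and 52.3 CPM among those assigned male. In cluster 3 it was at 75.1 and 145 CPM in female and at 73.2 and 95.8 CPM in male cells. Clusters 1, 3, 5 and 8 held at least 20 female cells in each library, and Cldn2 was lower in cKO in cluster 5 (13.1 and 11.1 CPM) and cluster 8 (25.8 and 20.4 CPM), with overlapping intervals. Cluster 3 held 119 of the 829 WT and 82 of the 274 cKO female cells. In male cells Cldn2 was higher in cKO in 8 of 8 clusters, with cluster 12 at 222 and 229 CPM. The male intervals of the 2 libraries overlapped in clusters 8, 12 and 18. In the 893 WT and 434 cKO cells left unassigned Cldn2 was at 51.5 and 63.1 CPM. Among cells assigned female, Cldn3 was at 524 and 564 CPM and Cldn7 at 1051 and 1093 CPM, higher in cKO, the reverse of the whole class. The part of sex, or of single tumours, in the difference between the libraries was not tested.

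**Figure D3:**
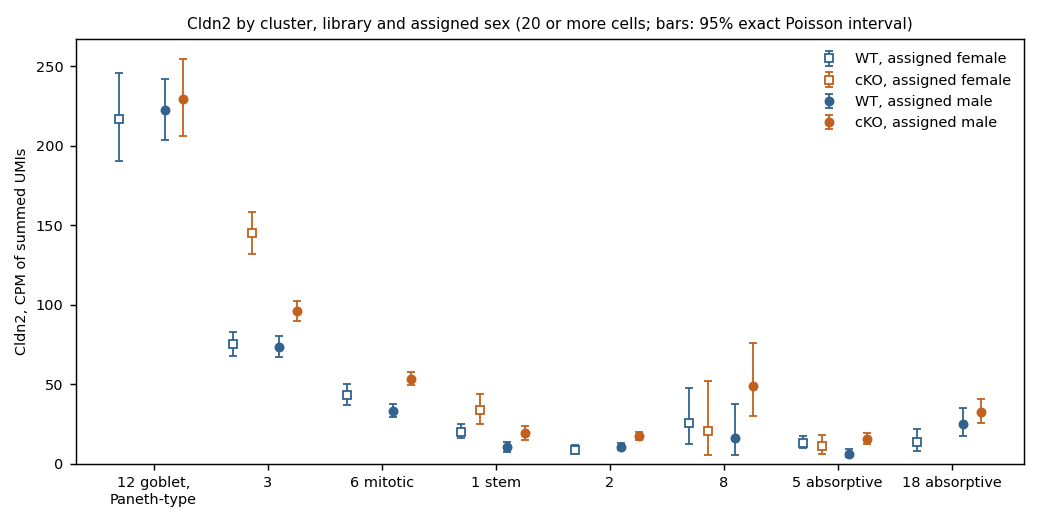
Cldn2 level (CPM, linear axis from 0) by epithelial-like cluster for cells assigned female (open squares) and male (filled circles), WT blue and cKO orange, with 95% exact Poisson intervals, where at least 20 cells were present. In cluster 3 the cKO value was 145 CPM in female and 95.8 CPM in male cells, while the WT values were 75.1 and 73.2 CPM.

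Like those of the scarcer Cldn1, found in 15 of 2762 WT cells, Cldn5 transcripts sat in few epithelial-like cells. Cluster 2 held 210 of 266 WT UMIs (78.9%) and 281 of 318 cKO UMIs (88.4%), at 12.2 CPM (10.6 to 13.9) and 21.8 CPM (19.4 to 24.5), differing by 0.84 on the log2 scale (0.58 to 1.11) in a cluster where 4.52% of measured genes passed 1.5-fold. Only 37 of 480 WT cells (7.71%) and 42 of 311 cKO cells (13.5%) of cluster 2 had a Cldn5 UMI, at medians of 31786 and 38300 UMIs, against 0 of 288 WT T-like cells, which at 3 counts allows a share of up to 1.04%, and 2 of 398 cKO ones (0.50%). Of these, 19 and 27 cells had at least 3 UMIs and gave 183 and 260 of the cluster's UMIs, up to 36 in 1 cell. In a finer clustering (resolution 2), the parts of cluster 2 led by Pnliprp1 and by Npy and Wdr49 were at 30.2 and 43.7 CPM in WT and at 38.9 and 70.4 CPM in cKO, and the largest part, led by Cadps and Mptx2, at 0.35 and 1.46 CPM. The Npy and Wdr49 part held 57 of the 480 WT and 79 of the 311 cKO cells. The Pnliprp1 part held 90 and 43 cells, and the largest part 332 and 187. The part of this make-up in the Cldn5 difference of cluster 2 was not tested.

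These cells carried few endothelial transcripts. In cells of cluster 2 with 3 or more Cldn5 UMIs the 12 endothelial markers summed to 41.3 (WT) and 50.5 CPM (cKO), and the 10 epithelial markers to 6091 and 5113 CPM. In endothelial-like cells the endothelial list was at 6817 and 6164 CPM. Of the 12 endothelial markers, 7 and 6 were at 0 in the Cldn5-bearing cells, among them Cdh5, Kdr, Plvap and Emcn in both libraries. Flt1 gave 26 of 39 and 39 of 61 of the list's UMIs. The cells of cluster 2 without a Cldn5 UMI had 115 and 104 CPM of the list, more than the cells with it. In those cells without Cldn5, Flt1 alone gave 1256 of 1785 (WT) and 820 of 1141 (cKO) of the list's UMIs.

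**Figure D4:**
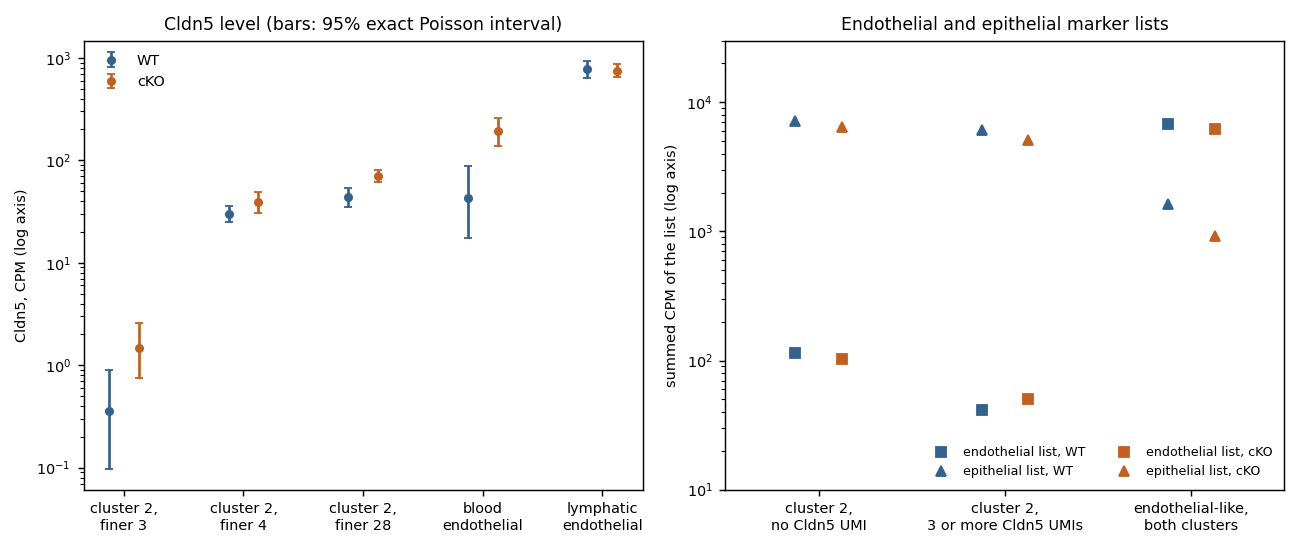
Left, Cldn5 level (CPM, log axis, 95% exact Poisson intervals) in 3 finer parts of epithelial-like cluster 2 and in both endothelial-like clusters; right, summed CPM (log axis) of the 12 endothelial (squares) and 10 epithelial (triangles) markers, WT blue and cKO orange. The Cldn5-bearing cells of cluster 2 had 41.3 and 50.5 CPM of endothelial markers, against 6817 and 6164 CPM in endothelial-like cells.

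Over both endothelial-like clusters together Cldn5 was the most abundant of the 9 claudins, and most of its UMIs came from the lymphatic cells. In these 51 WT and 55 cKO cells it was at 394 CPM (328 to 470) and 484 CPM (424 to 551). Lymphatic endothelial-like cells (13 and 23 cells, led by Ccl21a, Mmrn1 and Lyve1) were at 775 and 747 CPM from 116 and 186 UMIs. Blood endothelial-like cells (38 and 32 cells, led by Plvap, Selp and Cdh5) were at 43.1 CPM from 7 UMIs in WT and at 192 CPM from 43 UMIs in cKO. In the WT blood cells Cldn5 was thus below Cldn7 (259 CPM), Cldn4 (105 CPM) and Cldn3 (98.6 CPM). The cKO ones had 67.0 CPM of Cldn7, and the clusters had medians of 2227 and 6230 UMIs, and the part of epithelial RNA or depth in the Cldn5 difference was not tested.

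Cldn12 and Cldn15 in blood endothelial-like cells came from single-digit counts. In cKO, Cldn12 was at 40.2 CPM from 9 UMIs and Cldn15 at 31.3 CPM from 7 UMIs, beside 15 UMIs of Cldn7, where in epithelial-like cells of that library these genes came to 1.79% and 0.86% of Cldn7. In WT both rested on 2 UMIs. In both endothelial-like clusters together, 51 and 55 cells, 19 genes of the endothelial junction list were measured, of which 2 were higher and 3 lower past 1.5-fold in cKO. Between such small groups 17.7% of 10164 genes were higher and 22% lower by this fold, 39.7% in all. Jam2, coding for an adhesion molecule of the junction, was at 80.1 and 161 CPM, and Esam, coding for another, at 317 and 199 CPM. Lsr, which marks tricellular junctions, was at 35.3 and 4.23 CPM from 11 and 2 UMIs.

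Cldn1 was scarce in the epithelial-like cells and more abundant in some classes outside them, but not in all. B-like, plasma-like, mast and basophil-like and endothelial-like cells had 0 UMIs of it in both libraries. Fibroblast-like cells were at 6.16 (WT) and 3.39 CPM (cKO) from 7 and 3 UMIs. Cldn1 was highest in the squamous-like cells, a cluster of 57 cells of the cKO library led by Krt5 and Krt14. There it was at 47.9 CPM from 101 UMIs in 19 cells, up to 17 in 1 cell. Those cells carried Cldn4 at 202 CPM, above their 174 CPM of Cldn7, and Cldn3 at 49.4 CPM. Since no WT cell fell in that cluster, there is no level to set against it. Epithelial-like clusters did not pass 1.70 CPM of Cldn1, a value that rests on 5 UMIs.

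Cldn1 was also seen in neutrophil-like and dendritic-like cells of both libraries. Neutrophil-like cells had 29.4 CPM in WT (27 UMIs in 9 cells) and 10.6 CPM in cKO (20 UMIs in 12 cells), and dendritic-like cells 22.9 CPM (21 UMIs in 9 cells) and 16.9 CPM (22 UMIs in 13 cells). The cells with a UMI were 4.09% and 3.11% of neutrophil-like cells, at medians of 3945 and 4727 UMIs, and 17.3% and 18.1% of dendritic-like cells, at 16067 and 16041 UMIs. Among T-like cells the share was 0.35% in WT and 0% in cKO, where 0 of 398 cells allows, at 3 counts, up to 0.75%. The neutrophil-like cells with Cldn1 had 0 CPM of squamous markers in WT and 14.7 CPM in cKO, against 18672 CPM in squamous-like cells with Cldn1. The dendritic-like cells with Cldn1 had 26.7 (WT) and 3.12 CPM (cKO) of squamous markers, where those without it had 6.10 and 14.3 CPM. Their epithelial markers summed to 3471 and 534 CPM, against 2226 and 2183 CPM without Cldn1. In macrophage and monocyte-like cells, Cldn1 had 0 UMIs in 270 WT cells and 1 UMI in 330 cKO cells.

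**Figure D5:**
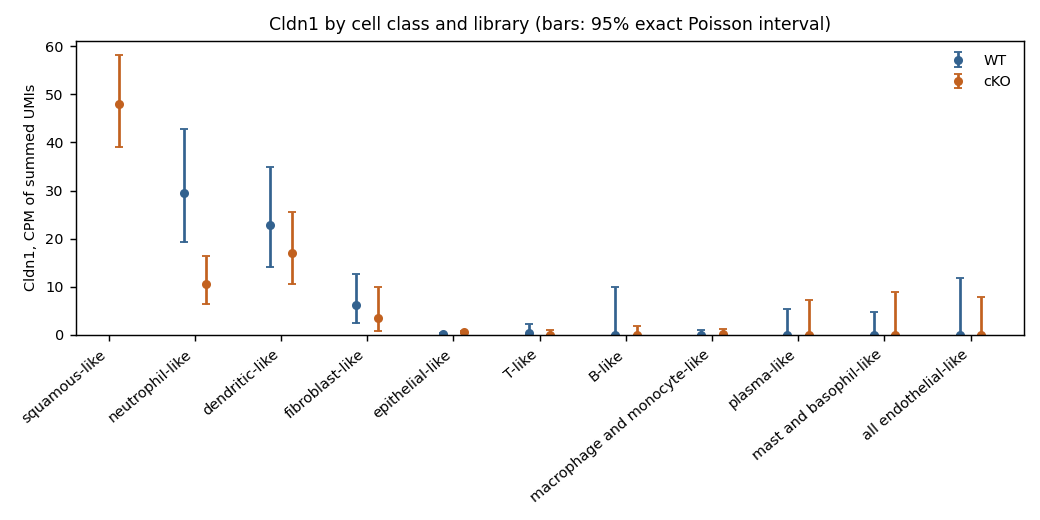
Cldn1 level (CPM, linear axis from 0) by cell class, WT blue and cKO orange, with 95% exact Poisson intervals that cover counting error only. Squamous-like cells, from the cKO library alone, stood at 47.9 CPM, neutrophil-like cells at 29.4 and 10.6 CPM and dendritic-like cells at 22.9 and 16.9 CPM, and epithelial-like cells at 0.21 and 0.56 CPM.

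Other genes of the junction and its control were counted by list. In epithelial-like cells none of the measured genes of 6 lists passed 1.5-fold, a fold that 2.04% of all measured genes passed, so the count is near the background. Among other tight junction membrane proteins 8 of 9 were lower in cKO (median log2 ratio -0.18), with the most abundant, Cxadr, at 452 and 386 CPM, F11r at 450.1 and 373 CPM and Ocln, coding for occludin, at 229 and 185 CPM. Among scaffold and polarity genes 13 of 19 were lower (median -0.07), with Tjp1, coding for ZO-1, at 256 and 217 CPM. Ybx3, coding for the ZO-1-associated nucleic acid binding protein, was higher, at 148 and 202 CPM. Among claudin partners and modifiers 14 of 15 were lower (median -0.16), while Epcam, whose protein stabilises CLDN7, was at 2258 and 2269 CPM. Adherens junction and desmosome genes were lower in 14 of 15 (median -0.14), the listed transcription factors in 12 of 17 (median -0.07) and the cytokine receptors in 11 of 15 (median -0.11). These counts are to be read beside the 55.9% of all measured genes that were lower in cKO.

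Among the listed factors, Cdx1 and Cdx2, the intestinal homeobox genes, varied over the clusters more than between the libraries. Cdx1 reached 113 and 111 CPM in cluster 3, and 89.3 and 118 CPM in cluster 12, the clusters with most Cldn2, but reached 185 and 199 CPM in the absorptive-like cluster 18, where Cldn2 was at 19.8 and 30.2 CPM. It was at 7.41 and 7.77 CPM in cluster 2. The highest Cdx2 level was that of cluster 5 in WT (28.8 CPM, where cKO had 19.2). In cKO it was that of cluster 18 (35.4 CPM, where WT had 25.8). Cluster 5 held little Cldn2 (12.5 CPM for WT, 12.7 CPM for cKO). The clusters with most Cldn2 had Cdx2 levels of 25.8 (WT) and 14.8 CPM (cKO) for cluster 3, and 14.5 (WT) and 19.1 CPM (cKO) for cluster 12. Cluster 2 had the least Cdx2, 1.10 (WT) and 0.39 CPM (cKO). Of the claudins' junction partners, Ocln ran from 91.3 CPM in cluster 8 to 371 CPM in cluster 18 of the WT library, and Tjp1 from 146 CPM in cluster 8 to 340.04 CPM in cluster 1. Cluster 8 was the shallowest epithelial-like cluster, and the part of depth or cell quality in its low values was not tested.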

How the data were processed

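The 2 matrices hold whole-number UMI counts per gene and barcode, not normalized, which the authors deposited; per the file headers they were written by Cell Ranger 7.2.0, and the submitters' processing notes name Cell Ranger, Seurat 3.0 and build mm10 (GRCm38). The sources used here give no annotation, chemistry or strand setting. The WT and cKO libraries held 9445 and 6723 barcodes and 116066712 and 97364087 UMIs, with 22 barcodes in common.

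Barcodes with under 500 genes (905 and 1607) or over 25% mitochondrial UMIs (671 and 487) and the 714 and 362 with the highest Scrublet scores (0.8% per 1000 barcodes) were left out. The rest were clustered with scanpy 1.11.5 and leidenalg 0.10.2 (2000 variable genes without claudins, 30 components, 20 neighbours, resolution 1). Clusters were named from marker lists. The scoring thresholds were set after the clusters were seen, shallow clusters without their own markers in the top 10 genes stayed unnamed, and the marker genes are not findings. UMIs were summed per group. Levels carry exact Poisson, shares exact binomial (Clopper-Pearson) and ratios exact conditional binomial intervals at 95% (scipy 1.17.1), with 0.5 added to both counts of a ratio. These cover counting error only. A share of 0 is given with the limit that 3 counts of the total set. With 1 library per genotype no test was made: genes at 10 CPM or more in either library count as past the fold at 1.5. Shares at equal depth come from cells thinned to 3000 UMIs. Likeness is Pearson r of log2(CPM + 1) over clusters of at least 100 cells, and the 3 most like genes with at least 50 CPM at 1 of the points were taken. All 9 members are named. Other claudins are named from 10 CPM in a subtype, and list genes where past the fold with an interval that leaves out 0, or among the 3 highest, of which some are not reported here. Ocln, Tjp1, Ybx3, Epcam, Cdx1 and Cdx2 were picked beyond that rule, after their values were seen. The members and lists were chosen with earlier results of these data known. Gene positions are from GENCODE M21 and promoters from RefSeq, which held windows for 8 members. The ratio code was tested on simulated counts. The alternatives are in the closing section.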

Additional observations from a re-analysis of the deposited data

Results flagged for a closer look

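Cldn1 appeared in cell classes outside the epithelium and endothelium that the comparisons use, above the level in T-like cells (0.41 CPM in WT and 0 in cKO). In neutrophil-like cells it was at 29.4 (WT) and 10.6 CPM (cKO). In dendritic-like cells it was at 22.9 (WT) and 16.9 CPM (cKO). Each value rests on 20 to 27 UMIs in 9 to 13 cells.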

How the results depend on the processing

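With 1 library per genotype, what limits these results is that library and genotype cannot be told apart, and that scarce claudins rest on few UMIs. No paired analysis was possible because there is 1 library per genotype. The number of measured claudins past 1.5-fold in epithelial-like cells, 0, became 1 with clusters of at least 100 cells weighed equally, 1 in cells assigned female and 2 with no minimum level; the cause of the first 2 was not tested. Over 14 alternatives, of which the cluster 7 addition and the equal weights of all clusters were added after seeing the data, Cldn2 (0.27 to 1.00), Cldn4 (-0.25 to -0.11) and Cldn12 (0.07 to 0.39) kept their direction. Cldn23, at -0.03 with an interval that holds 0, was at 0.22 in female cells, 0.24 in thinned cells and 0.0058 without mitochondrial, ribosomal, haemoglobin and immunoglobulin genes in the total, and negative in the other 11. In female cells the log2 ratio reversed for Cldn1 (-0.42), Cldn3 (0.11), Cldn5 (-1.76) and Cldn7 (0.056). It also reversed at resolution 2 for Cldn5 (-0.16), and with all clusters weighed equally for Cldn15 (0.023). The epithelial-like class required 6000 CPM of epithelial markers over a cluster. The finer part of cluster 2 led by Npy and Wdr49, with 85 (WT) and 199 (cKO) Cldn5 UMIs, had 6009 and 5141 CPM. The cause of these reversals was not tested. Cldn5 in endothelial-like cells was 0 CPM in WT and 556 CPM in cKO without cells that hold 5 or more epithelial UMIs, which leaves 7 and 15 cells; 43.1 and 192 CPM in blood, and 775 and 747 CPM in lymphatic cells, a split chosen after seeing the data. Of the claudins at 10 CPM or more and Cldn15, the named subtype with the highest level changed for Cldn12, while Cldn4 in stem-like cells fell from 475 to 313 CPM (WT) under the per-cell choice, beside 313 CPM in absorptive ones. Scaling moved the median log2 ratio of all genes between -0.02 and 0.02.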

Other observations

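Unnamed shallow cluster 7, left out of the epithelial-like class for its depth (cKO median 1945 UMIs), held claudin levels of the same order as epithelial-like cells. Cldn7 was at 842 (WT) and 670.3 CPM (cKO), Cldn3 at 444 and 279 CPM, Cldn4 at 341 and 311 CPM and Cldn2 at 16.8 and 36.4 CPM. In the WT dendritic-like cells Cldn2 was at 37.0 CPM from 34 UMIs in 3 of 52 cells, against 4.61 CPM from 6 UMIs in 3 of 72 cells in cKO. Fibroblast-like cells had 421 CPM of Cldn7 in WT and 121 CPM in cKO, more than T-like cells in both libraries.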
